A study of Mus musculus with 12 samples.

Results

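The effect of the 5xFAD transgenes on the hippocampal transcriptome was measured in mice without Kcnip3, by setting Kcnip3 KO-5xFAD against Kcnip3 KO. The comparison used 6 of the 12 libraries of the series, 3 of each genotype, taken by their labels, and all genes of the count table. Both groups were null for Kcnip3 (Kcnip3 -/-), so the transgenes were the labelled difference. The remaining 6 libraries, 3 of 5xFAD and 3 of WT, entered the same fit and gave the effect on the intact background. All animals were adult and the tissue was hippocampus. Age in months, sex, strain, the kind of knockout allele and the number of animals behind a library are not given in the labels, so p-values measure the spread between libraries, which may be technical. The RNA was from one hemisphere, the opposite one having gone to proteomics.

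5xFAD mice express mutant human transgenes, a form of APP among them, in neurons under Thy1 regulatory sequences and deposit amyloid-beta early in life. Microglia gather at the plaques, and signalling by the lipid receptor TREM2 through its adaptor TYROBP moves them from a homeostatic to a plaque-associated state rich in lysosomal proteases, phagocytic receptors and antigen presentation. Kcnip3 encodes KChIP3, which has also been named calsenilin and DREAM. It senses calcium in neurons, where it tunes Kv4 potassium channels and represses transcription. The comparison asks what the transgenes change in a hippocampus that lacks this protein.

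The 6 libraries held 8014949 to 9364300 counts. Levels are given as TMM-scaled CPM, on which a count of 3, the limit that a count of 0 allows, stood at 0.314 to 0.368. The neuronal identity of the tissue was present in every library: markers of CA1 and CA3 pyramidal cells summed to 1142 to 1213 CPM in Kcnip3 KO-5xFAD and to 1076 to 1370 CPM in Kcnip3 KO. Mitochondrial transcripts took 4.24% to 5.47% of the counts in Kcnip3 KO-5xFAD and 4.14% to 5.03% in Kcnip3 KO. Xist was at most 0.111 CPM in these libraries.

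One library went against its label by Thy1, while App did not set it apart from its group. Thy1 (chromosome 9), whose regulatory sequences drive the transgenes, was at 3381, 926 and 2592 CPM in Kcnip3 KO-5xFAD 1, 2 and 3, against 749, 792 and 868 CPM in Kcnip3 KO. The library labelled Kcnip3 KO-5xFAD 2 thus lay just above the Kcnip3 KO libraries and far below the other Kcnip3 KO-5xFAD libraries. Thy1 did not pass the test, with a log2 fold change of 1.52 ± 0.51 (SE, adjusted p = 0.36). Because the transgenes are human, reads of mouse App are an indirect check. App, the amyloid precursor protein gene, was at 1026, 999.6 and 1139 CPM in Kcnip3 KO-5xFAD and at 1272, 1258 and 1248 CPM in Kcnip3 KO (-0.26 ± 0.10, adjusted p = 0.381). The groups did not overlap, with Kcnip3 KO-5xFAD lower, and the gene did not pass. The library labelled Kcnip3 KO-5xFAD 2 had the lowest App level of these libraries. As mouse App does not measure the human transgenes and was not called, this level does not decide whether that library carries them.

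Kcnip3 (chromosome 2, 127456498 to 127522094, GRCm38) still gave reads. It was at 84.9, 68.7 and 70.1 CPM in Kcnip3 KO-5xFAD and at 71.4, 63.4 and 125 CPM in Kcnip3 KO, and the highest value, in the library labelled Kcnip3 KO 3, came near the 138 to 162 CPM of the 6 libraries with the intact gene. The groups overlapped and the gene did not pass (-0.22 ± 0.20, adjusted p = 0.745). Which exons these reads cover was not analysed here. Eif3j2, a copy of a translation initiation factor gene that was listed because its level follows the knockout in these libraries, was at 11.5, 10.2 and 10.4 CPM in Kcnip3 KO-5xFAD, against 11.5, 8.58 and 11.7 CPM in Kcnip3 KO and no more than 0.381 CPM in the libraries with intact Kcnip3.

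**Figure D1:**
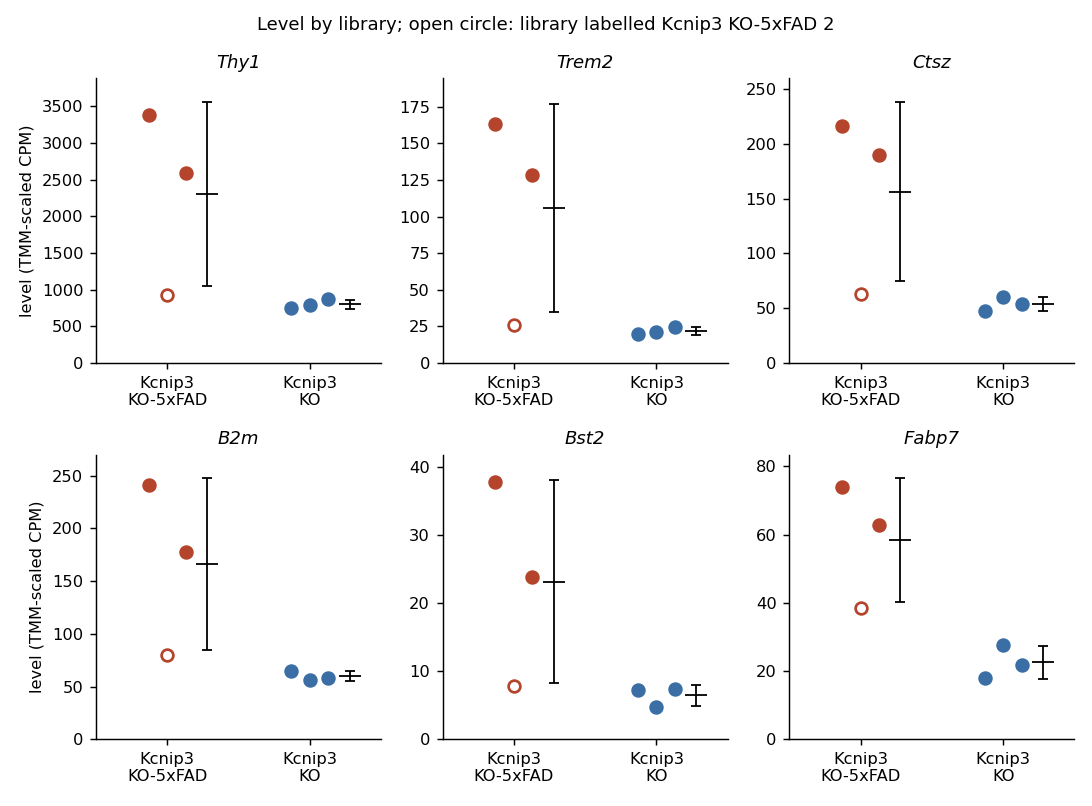
Levels of 6 genes in TMM-scaled CPM (linear axes from 0) in the 3 Kcnip3 KO-5xFAD libraries (red, left) and the 3 Kcnip3 KO libraries (blue, right), with mean and SD. The open circle, the library labelled Kcnip3 KO-5xFAD 2, lies close to the blue points for Thy1 (926 CPM), Trem2, Ctsz, B2m and Bst2, and between the groups for Fabp7 (38.6 CPM).

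With all libraries as labelled, no gene passed. A gene was called when its Benjamini-Hochberg adjusted p in edgeR's quasi-likelihood test was under 0.05. Of 15905 genes, 0 were called higher (0%) and 0 lower (0%) in Kcnip3 KO-5xFAD than in Kcnip3 KO. At an unadjusted p under 0.05 there were 969 higher (6.09%) and 688 lower (4.33%). Limma-voom also called 0 in both directions. DESeq2 called 110 higher and 23 lower, and 89 of its 110 (80.9%) were among the genes called by edgeR once the library labelled Kcnip3 KO-5xFAD 2 was left out, as was 1 of its 23 lower genes (4.35%). The fits shared every library but that one, so part of the overlap was built in. Without that library, edgeR called 190 of 16182 genes higher (1.17%) and 3 lower (0.0185%), with 930 higher (5.75%) and 473 lower (2.92%) at an unadjusted p under 0.05. Libraries did not overlap in 1331 genes on the higher side (8.37%) and 1153 on the lower side (7.25%) with all libraries, and in 2297 (14.2%) and 1765 (10.9%) without that library. With a further library left out, the count of higher genes was 43 without Kcnip3 KO-5xFAD 1, 252 without Kcnip3 KO-5xFAD 3, and 91, 125 and 115 without Kcnip3 KO 1, 2 and 3. The lower genes then numbered 0 to 6. Values below are from the fit without the library labelled Kcnip3 KO-5xFAD 2 unless all 12 are named. It was left out for its Thy1 level, which moves with the genes called. The adjusted p-values below thus depend on that choice and may be too small. With all 12 libraries edgeR's adjusted p was 0.251 for Ctsz and 0.228 for B2m, both described below. That library's level is shown where levels are given by library, and not where only a fold change is given. It was at or below the highest Kcnip3 KO library in 84 of the 190 genes called higher (44.2%).

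Of the 190 genes called higher, 94 were among the 588 tested members of the lists described below. Most of the 94 belonged to lists of microglia and of immune signalling. The lists were chosen with earlier results of these data known. In bulk RNA more cells of a type and more RNA per cell cannot be told apart. Of 153 tested genes of the microglial, complement and lysosomal lists, 55 were called, and of 82 genes of antigen presentation, interferon response and chemokines, 38. Over all 16182 genes the share called higher was 1.17%. The library labelled Kcnip3 KO-5xFAD 2, which these calls did not use, exceeded the highest Kcnip3 KO library in 106 of the 190 genes (55.8%), against 26.6% of all 16182 genes, and lay within the Kcnip3 KO range in 65. The median log2 ratio of the library labelled Kcnip3 KO-5xFAD 2 to the mean of the Kcnip3 KO libraries was 0.27 over the 190 genes, against 1.71 and 1.28 for Kcnip3 KO-5xFAD 1 and 3. WT 1 and WT 2, which carry no transgene, exceeded the highest Kcnip3 KO library in 53.7% and 50.5% of the 190 genes, with medians of 0.19 each. WT 3, whose Thy1 level also goes against its label, did so in 83.7%, with a median of 0.58. On these genes the library labelled Kcnip3 KO-5xFAD 2 thus lay near WT 1 and WT 2. All these ratios share the Kcnip3 KO libraries, which the calls used.

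**Figure D2:**
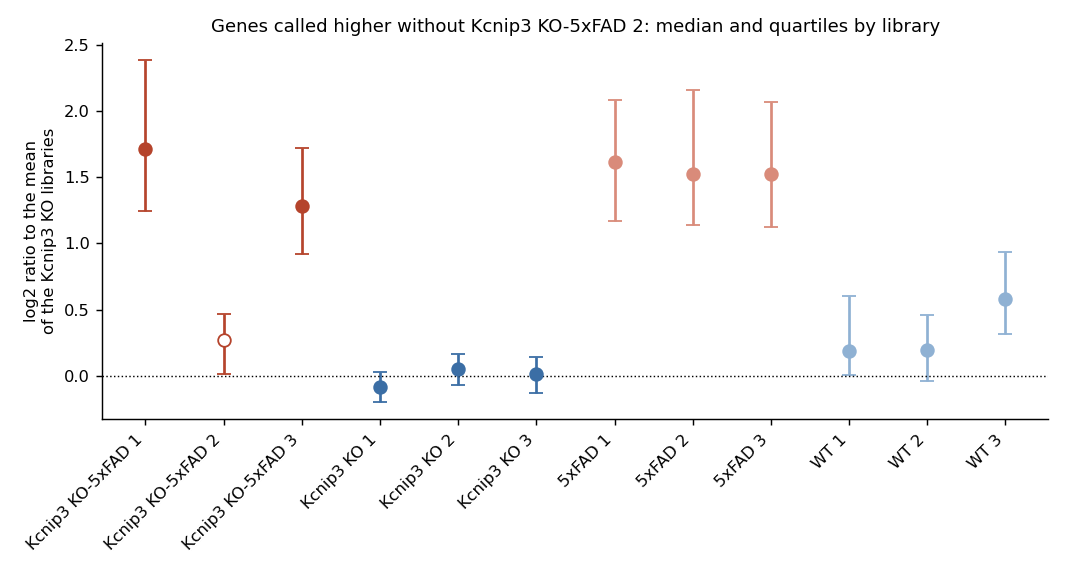
Log2 ratio of each library to the mean of the 3 Kcnip3 KO libraries over the 190 genes called higher without the library labelled Kcnip3 KO-5xFAD 2 (points are medians, bars run from the lower to the upper quartile). Kcnip3 KO-5xFAD 1 and 3 have medians of 1.71 and 1.28, the open circle lies at 0.27, and WT 1 and 2 lie at 0.19.

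Genes of plaque-associated microglia were among the clearest changes. Of 32 tested, 31 had a positive log2 fold change, as 47.9% of all genes did, and 15 rose, with a median of 1.68, against -0.01 over all genes tested. Ctsz, the lysosomal protease cathepsin Z, was at 216, 63.2 and 189 CPM in Kcnip3 KO-5xFAD and at 47.7, 60.04 and 54.0 CPM in Kcnip3 KO (1.91 ± 0.15, adjusted p = 6.55e-05). Every Kcnip3 KO-5xFAD library exceeded every Kcnip3 KO library, but the library labelled Kcnip3 KO-5xFAD 2 did so by a few CPM. The tetraspanin gene Cd9 rose (1.12 ± 0.13, adjusted p = 0.000826), as did Cd52, a small leukocyte surface glycoprotein (3.19 ± 0.40, adjusted p = 0.00112), and Ctsd, the aspartyl protease cathepsin D (1.57 ± 0.20, adjusted p = 0.00122). Cst7, the cysteine protease inhibitor cystatin F, had 66.6, 1.00 and 55.9 CPM in Kcnip3 KO-5xFAD and 0.105, 0 and 0.230 CPM in Kcnip3 KO. It was thus far higher in Kcnip3 KO-5xFAD 1 and 3 than in the other 4 libraries, with 1056 counts in Kcnip3 KO-5xFAD 1 and 3 and 3 counts in all Kcnip3 KO libraries, a ratio of 544 (95% exact interval 186 to 2643, counting error only). It did not pass in this fit (adjusted p = 0.16), in which WT 3, at 26.5 CPM, stood far from WT 1 and 2, and it passed when WT 3 was left out too (adjusted p = 4.61e-06 in edgeR).

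The receptor that opens this state rose too. Trem2 was at 163, 26.2 and 128 CPM in Kcnip3 KO-5xFAD and at 19.7, 21.3 and 24.7 CPM in Kcnip3 KO (2.73 ± 0.49, adjusted p = 0.0399). Its adaptor Tyrobp rose as well, at 167, 36.8 and 146 CPM in Kcnip3 KO-5xFAD against 24.0, 25.6 and 29.2 CPM in Kcnip3 KO (2.57 ± 0.42, adjusted p = 0.0238). In both genes the library labelled Kcnip3 KO-5xFAD 2 lay just above the Kcnip3 KO libraries. Of 21 genes of Trem2 signalling, 7 rose, with a median of 0.93. They included Ptpn6, the phosphatase SHP-1 (1.89 ± 0.22, adjusted p = 0.000667), the transcription factor gene Irf8 (1.77 ± 0.22, adjusted p = 0.00104) and the adaptor gene Lat2 (1.55 ± 0.30, adjusted p = 0.0228).

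Genes that mark homeostatic microglia were among those that rose as well. Of 18 tested, 16 were positive and 7 rose, with a median of 0.79. Olfml3, a secreted matrix protein, was at 68.3, 34.0 and 62.4 CPM in Kcnip3 KO-5xFAD and at 22.9, 27.5 and 29.2 CPM in Kcnip3 KO (1.29 ± 0.14, adjusted p = 0.000578). The growth factor receptor gene Csf1r rose by 0.98 ± 0.16 on the log2 scale (adjusted p = 0.00512) and the lectin gene Siglech by 1.22 ± 0.20 (adjusted p = 0.00662). Summed over the list, the level was 1082, 593 and 894 CPM in Kcnip3 KO-5xFAD and 518, 521 and 551 CPM in Kcnip3 KO, without overlap.

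The subunits of C1q, which opens the classical complement pathway, rose by similar amounts, C1qc by 1.77 ± 0.19 (adjusted p = 0.000578), C1qb by 1.70 ± 0.21 (adjusted p = 0.00177) and C1qa by 1.81 ± 0.23 (adjusted p = 0.00239). C1qc was at 267, 91.1 and 213 CPM in Kcnip3 KO-5xFAD and at 65.1, 75.1 and 70.4 CPM in Kcnip3 KO. Of 19 complement genes 6 rose, including the integrin chain Itgb2 (1.30 ± 0.23, adjusted p = 0.0102) and C4b (2.33 ± 0.34, adjusted p = 0.0102), which astrocytes also make, and the median was 0.59. Of 24 Fc and pattern receptor genes all were positive and 8 rose, with a median of 1.60. The Fc receptor chains Fcer1g (1.87 ± 0.28, adjusted p = 0.00424), Fcgr3 (1.61 ± 0.23, adjusted p = 0.00351) and Fcgr1 (1.70 ± 0.25, adjusted p = 0.00327) were among them, with the activating receptor gene Cd300c2 (1.63 ± 0.22, adjusted p = 0.00177).

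Genes of antigen presentation by both MHC classes rose. MHC class I molecules show peptides to CD8 T cells and share the light chain beta-2 microglobulin, encoded by B2m, which was at 241, 80.2 and 177 CPM in Kcnip3 KO-5xFAD and at 65.1, 56.7 and 58.2 CPM in Kcnip3 KO (1.79 ± 0.15, adjusted p = 6.55e-05). All Kcnip3 KO-5xFAD libraries lay above all Kcnip3 KO libraries. B2m lies on chromosome 2, as Kcnip3 does, and is among 15 genes listed because their level differed with the knockout itself, which both groups carry. Of 19 class I genes all were positive and 12 rose, with a median of 1.31. Psmb8, a subunit of the immunoproteasome, rose by 1.76 ± 0.16 (adjusted p = 0.000185), and the heavy chains H2-K1 by 1.46 ± 0.15 (adjusted p = 0.000308) and H2-Q6 by 2.53 ± 0.31 (adjusted p = 0.000914). The H2 heavy chains, the Fc receptors, Bcl2a1b, Lilrb4a and Ifi204 belong to families with close copies, between which the counting could split reads, so their values are uncertain.

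MHC class II, which presents peptides taken up from outside the cell, gave 6 risen genes of 10, all 10 positive, with a median of 1.73. Cd74, the invariant chain that guides class II molecules to endosomes, was at 37.9, 8.001 and 51.9 CPM in Kcnip3 KO-5xFAD and at 8.78, 7.85 and 5.29 CPM in Kcnip3 KO (2.61 ± 0.31, adjusted p = 0.00125). It was highest in Kcnip3 KO-5xFAD 3, and the library labelled Kcnip3 KO-5xFAD 2 lay inside the Kcnip3 KO range. H2-Ab1 (2.06 ± 0.26, adjusted p = 0.00106), H2-Aa (1.88 ± 0.30, adjusted p = 0.00512) and the processing protease gene Ctss (1.88 ± 0.26, adjusted p = 0.00436) also rose. Markers of perivascular macrophages, which also carry class II, summed to 9.09 to 17.6 CPM in Kcnip3 KO-5xFAD and 11.4 to 14.1 CPM in Kcnip3 KO, and 0 of the 7 tested were called.

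Of 31 interferon-response genes all were positive and 13 rose, with a median of 1.63. Bst2, the antiviral membrane protein tetherin, was at 37.8, 7.89 and 23.9 CPM in Kcnip3 KO-5xFAD and at 7.21, 4.71 and 7.48 CPM in Kcnip3 KO (2.24 ± 0.25, adjusted p = 0.000578). Ifi27l2a was at 24.8, 1.67 and 12.6 CPM in Kcnip3 KO-5xFAD and at 1.46, 1.45 and 1.15 CPM in Kcnip3 KO (3.77 ± 0.42, adjusted p = 0.000671). In both, Kcnip3 KO-5xFAD 1 was the highest library. Mx1, a dynamin-like antiviral GTPase, was at 3.99, 0 and 1.96 CPM in Kcnip3 KO-5xFAD and at 0.209, 0 and 0.115 CPM in Kcnip3 KO, where its 3 counts set a ratio of 26.8 (95% exact interval 8.68 to 134). Ifi27 rose by 0.87 ± 0.12 (adjusted p = 0.00239). The number of risen interferon genes was 2 of 31 when the library labelled Kcnip3 KO-5xFAD 1 was also left out, and 22 of 32 when Kcnip3 KO-5xFAD 3 was, with medians of 1.06 and 2.26.

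Interferon-regulated promoters often hold the interferon-stimulated response element, bound by STAT and IRF factors. Its core, GAAANNGAAA, was searched on both strands of RefSeq windows from 250 bases before to 50 after each start site (GRCm38.p6). It was present in 3.99% of all 27025 genes with a window, in 3.59% of the tested genes with one, and in 17 of 24 interferon-response genes (70.8%), 5 of them among the 7 called ones with a window. Of the class I genes with a window it was present in 5 of 17, B2m among them, and of the called class I genes in 2 of 11 (18.2%). Of all called genes with a window 16 of 139 held it (11.5%). A match is a string of letters, and no binding was measured. Matches of B2m, Bst2, Isg15 and Cxcl10 are shown in capitals, overlapping where several lie together, in the reading direction of the gene. Other called genes with a match are not shown, among them H2-T23 and Trim30a, whose match lies on the opposite strand.
B2m, chr2:122147488-122147617, plus strand: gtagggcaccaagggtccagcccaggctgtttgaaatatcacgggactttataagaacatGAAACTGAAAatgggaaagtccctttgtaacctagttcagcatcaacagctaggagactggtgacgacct
Bst2, chr8:71537527-71537662, minus strand: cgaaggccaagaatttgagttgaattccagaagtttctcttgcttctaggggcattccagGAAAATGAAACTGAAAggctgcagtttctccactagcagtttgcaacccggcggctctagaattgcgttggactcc
Isg15, chr4:156200819-156200956, minus strand: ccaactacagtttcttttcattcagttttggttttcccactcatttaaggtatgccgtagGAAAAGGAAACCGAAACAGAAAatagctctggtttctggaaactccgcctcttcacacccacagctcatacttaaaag
Cxcl10, chr5:92349033-92349139, minus strand: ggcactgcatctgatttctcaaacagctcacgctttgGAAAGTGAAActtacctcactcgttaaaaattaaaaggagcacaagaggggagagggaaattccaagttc

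Of these 4 genes, Isg15, a ubiquitin-like modifier, was at 14.6, 2.11 and 7.37 CPM in Kcnip3 KO-5xFAD and at 3.45, 2.90 and 1.38 CPM in Kcnip3 KO (2.08 ± 0.44, adjusted p = 0.041). Cxcl10, a chemokine for T cells, was at 6.21, 0.445 and 1.11 CPM in Kcnip3 KO-5xFAD and at 0.523, 0.362 and 0.115 CPM in Kcnip3 KO (3.39 ± 0.70, adjusted p = 0.0314). The library labelled Kcnip3 KO-5xFAD 2 lay within the Kcnip3 KO range for Isg15 and Cxcl10, and above it for B2m and Bst2. Markers of lymphocytes and neutrophils were low, as the 13 listed summed to 3.81 to 8.21 CPM in Kcnip3 KO-5xFAD and to 2.82 to 6.40 CPM in Kcnip3 KO.

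Chemokine and cytokine genes were mixed, with 7 of 22 risen and a median of 0.43. Ccl3, a chemokine made by microglia at plaques, was at 8.54, 0.778 and 6.63 CPM in Kcnip3 KO-5xFAD and at 0.314, 0.966 and 0.806 CPM in Kcnip3 KO (3.44 ± 0.61, adjusted p = 0.015). Ccl4 (4.06 ± 0.78, adjusted p = 0.022), Ccl12 (2.55 ± 0.49, adjusted p = 0.0187), the receptor gene Csf3r (1.85 ± 0.23, adjusted p = 0.00112) and the growth factor gene Csf1 (0.90 ± 0.16, adjusted p = 0.0112) rose too. Of the 10 largest log2 fold changes among called genes, those not yet described were Clec7a (5.68), the beta-glucan receptor Dectin-1, Pdcd1, the T cell and microglial checkpoint receptor PD-1, Ifi204 (4.55), a DNA sensor, Tgm1 (3.87), a transglutaminase, Lilrb4a (3.62), an inhibitory receptor, and Bcl2a1b (3.59), a survival factor. Pdcd1 had 3 counts in all Kcnip3 KO libraries and 63 in Kcnip3 KO-5xFAD 1 and 3, a ratio of 32.5 (95% exact interval 10.6 to 162). Ccl4, Clec7a, Ifi204, Tgm1 and Lilrb4a were at no more than 0.362 CPM in Kcnip3 KO and Bcl2a1b at no more than 0.690 CPM. These lie near the level of a count of 3, so the sizes of these fold changes are uncertain. Over the alternative fits Clec7a stayed called in 16 of 22, Lilrb4a in 14 of 21 and Tgm1 in 19 of 21. Ccl4 and Ccl12 did so in 15 of 21 each. Ifi204 and Bcl2a1b stayed called in 20 of 21 each.

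Lysosomal genes gave the largest number of calls of any list, 20 of 48, at a lower median of 0.43. Grn, the lysosomal growth factor progranulin, was at 216, 100.5 and 167 CPM in Kcnip3 KO-5xFAD and at 82.3, 80.7 and 76.3 CPM in Kcnip3 KO (1.26 ± 0.13, adjusted p = 0.000465). Every Kcnip3 KO-5xFAD library exceeded every Kcnip3 KO library. Unc93b1, which ferries nucleic acid sensing Toll-like receptors to endosomes, rose by 1.27 ± 0.14 (adjusted p = 0.000477), and the protease gene Ctsh by 1.13 ± 0.14 (adjusted p = 0.00122).

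Astrocytes gave a split picture. Of 30 reactive astrocyte genes 6 rose, with a median of 0.98, and of these Psmb8, Cxcl10, C4b and the protease gene Ctsb are also members of the other lists above or made by microglia. S100a6, a calcium-binding protein of reactive astrocytes, was at 58.4, 24.2 and 37.8 CPM in Kcnip3 KO-5xFAD and at 12.1, 18.2 and 21.5 CPM in Kcnip3 KO (1.48 ± 0.22, adjusted p = 0.00347). Gfap, the intermediate filament gene most used to mark reactive astrocytes, was at 2872, 551 and 1571 CPM in Kcnip3 KO-5xFAD and at 341, 589 and 839 CPM in Kcnip3 KO, and did not pass (1.91 ± 0.46, adjusted p = 0.141). The Kcnip3 KO libraries alone spanned a wide range for Gfap. None of the 22 astrocyte identity genes was called (median 0.05). Mlc1, a membrane protein of astrocyte endfeet, had a log2 fold change of 0.33 (adjusted p = 0.34), and Fgfr3, an astrocyte growth factor receptor, one of -0.44 (adjusted p = 0.229).

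Among 26 genes of lipid transport, 1 rose. Fabp7 (chromosome 10, 57784881 to 57788450, GRCm38), the brain fatty acid-binding protein of radial glia and astrocytes, was at 73.8, 38.6 and 62.9 CPM in Kcnip3 KO-5xFAD and at 18.1, 27.8 and 21.8 CPM in Kcnip3 KO. All Kcnip3 KO-5xFAD libraries exceeded all Kcnip3 KO libraries, the library labelled Kcnip3 KO-5xFAD 2 included. The log2 fold change was 1.60 ± 0.17 (adjusted p = 0.000477), and 1.38 ± 0.22 (adjusted p = 0.154) with all 12 libraries. The apolipoprotein gene Apoe, which supplies the chief lipid carrier made by glia, was at 4285, 3345 and 3935 CPM in Kcnip3 KO-5xFAD and at 2374, 2837 and 2583 CPM in Kcnip3 KO, also without overlap, and missed the threshold (0.66 ± 0.16, adjusted p = 0.073). None of the 22 sterol synthesis genes was called (median 0.27), with Nsdhl at 0.56 (adjusted p = 0.138) and Mvk at 0.53 (adjusted p = 0.159).

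How many members of a list were called depended on single libraries. When the library labelled Kcnip3 KO-5xFAD 1 was also left out, the calls were 5 of 32 for plaque-associated microglia, 1 of 18 for homeostatic microglia, 2 of 21 for Trem2 signalling, 3 of 19 for complement, 1 of 26 for Fc and pattern receptors, 5 of 19 for MHC class I, 3 of 10 for class II, 1 of 25 for chemokines and cytokines, 10 of 48 for the lysosome and 1 of 30 for reactive astrocytes. Their medians stayed above 0, at 0.34 for the lysosome to 1.72 for class II. Without Kcnip3 KO 1, 2 or 3 the calls were 8, 9 and 9 for plaque-associated microglia, 2, 3 and 3 for Trem2 signalling, 6, 7 and 7 for MHC class I, 5 each for the interferon response and 1, 4 and 3 for chemokines and cytokines. Without Kcnip3 KO 1 they were 5 for Fc and pattern receptors, 4 for class II and 4 for reactive astrocytes, and without Kcnip3 KO-5xFAD 3 they were 4 of 22 for Trem2 signalling. Of the 52 named genes called here, 22 were called in every one of 22 alternatives and Pdcd1 in the 21 in which it was tested. Among the 22 were Ctsz, Ctsd, Cd9, C1qc, B2m, H2-K1, Cd74, Bst2, Ifi27l2a, Grn and Fabp7. Tyrobp was called in 15 of the 22.

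**Figure D3:**
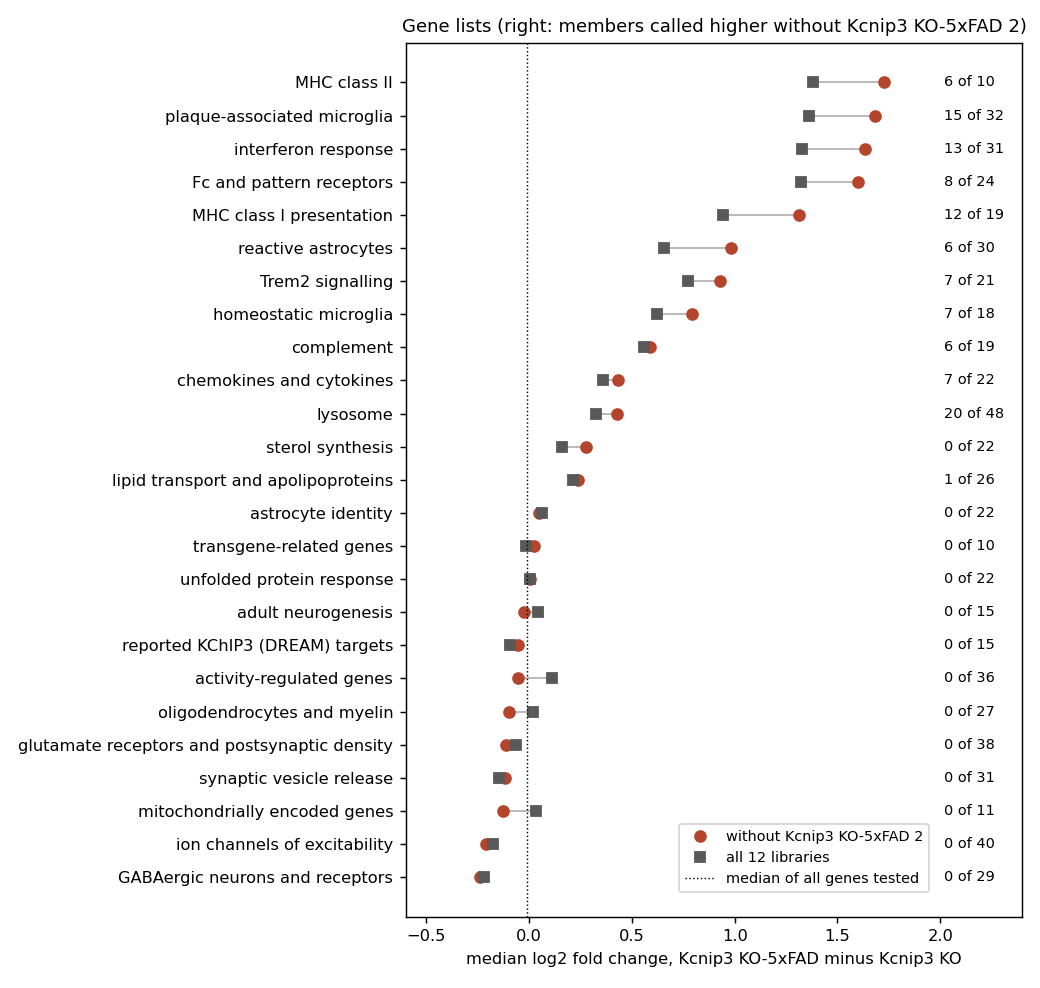
Median log2 fold change of each gene list, Kcnip3 KO-5xFAD minus Kcnip3 KO, without the library labelled Kcnip3 KO-5xFAD 2 (circles) and with all 12 libraries (squares), with the number of members called higher of those tested at the right and the median of all genes as a dotted line. MHC class II (1.73), plaque-associated microglia (1.68) and interferon response (1.63) stand highest, and the synaptic and channel lists lie at or below 0 with 0 called.

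The neuronal lists gave no calls in this fit. The 5 lists of activity-regulated genes, glutamate receptors, vesicle release, GABAergic genes and ion channels held 173 tested genes, of which 0 were called, 136 had a negative log2 fold change (78.6%, against 52.1% of all genes), and the median was -0.16. With all 12 libraries 115 of the 173 were negative (66.5%, against 50.2% of all genes, of which 49.8% were positive), and 19 were below every Kcnip3 KO library, where 7.25% of all genes were. Cacna1a, the pore of P/Q-type calcium channels, was at 118, 113 and 117 CPM in Kcnip3 KO-5xFAD and at 139, 144 and 152 CPM in Kcnip3 KO (-0.31 ± 0.10, adjusted p = 0.263). Gabbr2, a subunit of the GABA-B receptor, was at 140.0, 177 and 189 CPM in Kcnip3 KO-5xFAD and at 224, 219.5 and 239 CPM in Kcnip3 KO (-0.47 ± 0.13, adjusted p = 0.156). The groups did not overlap in either gene, and neither passed, but with all 12 libraries DESeq2 called both lower (adjusted p = 0.0261 for Cacna1a and 0.0427 for Gabbr2). Kcnma1, the BK channel (-0.31, adjusted p = 0.264), Pvalb, a calcium buffer of fast-spiking interneurons (-0.81, adjusted p = 0.0795), Syt2 (-1.36, adjusted p = 0.387) and Vamp1 (-0.81, adjusted p = 0.394), both of vesicle release, Grm7 (-0.27, adjusted p = 0.641), a presynaptic glutamate receptor, and Shank2 (-0.23, adjusted p = 0.757), a postsynaptic scaffold, were the members of smallest p in their lists. With a length and GC offset, also without the library labelled Kcnip3 KO-5xFAD 2, Pvalb was called lower (-0.93, adjusted p = 0.0383 in edgeR).

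Among the 36 activity-regulated genes the median was -0.06, and 0.11 with all 12 libraries. Fos, an immediate-early transcription factor and a reported target of KChIP3, was at 38.3, 25.003 and 19.2 CPM in Kcnip3 KO-5xFAD and at 13.6, 7.97 and 15.5 CPM in Kcnip3 KO (1.20 ± 0.48, adjusted p = 0.514). Nr4a1, an orphan nuclear receptor that neuronal activity also switches on, was at 157, 157 and 74.5 CPM in Kcnip3 KO-5xFAD and at 86.4, 61.9 and 70.0 CPM in Kcnip3 KO (0.66 ± 0.34, adjusted p = 0.657). The library labelled Kcnip3 KO-5xFAD 2 matched Kcnip3 KO-5xFAD 1 for Nr4a1, unlike for the microglial genes. Dusp4, a phosphatase of MAP kinases, was at -0.84 (adjusted p = 0.279) and Egr4, a zinc-finger factor, at 0.47 (adjusted p = 0.612). Of 15 reported KChIP3 targets 0 were called, with a median of -0.05. Among 27 myelin genes (median -0.10), 22 of the unfolded protein response (0.00), 15 of adult neurogenesis (-0.03) and 11 mitochondrially encoded genes (-0.13) 0 were called. The members of smallest p there were Serpina3n (1.60, adjusted p = 0.294), a protease inhibitor that reactive glia make, Opalin (0.46, adjusted p = 0.813), a myelin protein, Ern1 (-0.29, adjusted p = 0.812), a stress sensor, Chac1 (-0.38, adjusted p = 0.757), which breaks down glutathione, mt-Co2 (0.91, adjusted p = 0.667), a subunit of cytochrome oxidase, and mt-Atp8 (-2.01, adjusted p = 0.322), a subunit of ATP synthase.

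The 3 genes called lower were Tshz2, Ccdc184 and Lgi2. Lgi2, a secreted protein of synapses, was at 60.5, 67.8 and 71.3 CPM in Kcnip3 KO-5xFAD and at 102, 110.2 and 103 CPM in Kcnip3 KO (-0.68 ± 0.14, adjusted p = 0.0307). Its groups stood well apart with all 12 libraries too (-0.66 ± 0.12, adjusted p = 0.179). Tshz2, a zinc-finger factor of cortical neurons, was at 41.2, 56.7 and 42.0 CPM in Kcnip3 KO-5xFAD and at 73.5, 81.2 and 65.7 CPM in Kcnip3 KO (-0.83 ± 0.19, adjusted p = 0.0497). Ccdc184 was at 20.5, 28.3 and 21.9 CPM in Kcnip3 KO-5xFAD and at 27.1, 37.8 and 46.6 CPM in Kcnip3 KO (-0.81 ± 0.18, adjusted p = 0.0487), with an overlap at the library labelled Kcnip3 KO-5xFAD 2. Over 22 alternatives Lgi2 stayed called in 13, Tshz2 in 10 and Ccdc184 in 5. Tshz2 was chosen as a marker of tissue next to the hippocampus. The 16 markers of cortex, striatum and thalamus summed to 659, 583 and 697 CPM in Kcnip3 KO-5xFAD and to 644, 880 and 864 CPM in Kcnip3 KO, 14 of the 16 were negative, and their part in the lower genes was not tested.

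Choroid plexus markers differed between libraries of a group. The 14 summed to 555, 646 and 5407 CPM in Kcnip3 KO-5xFAD and to 4793, 3784 and 5334 CPM in Kcnip3 KO, with Ttr, the thyroid hormone carrier of the plexus, at 341, 371 and 4252 CPM in Kcnip3 KO-5xFAD, against 3801, 2890.2 and 4394 CPM in Kcnip3 KO. All 14 were negative and 0 were called. Choroid markers were thus low in Kcnip3 KO-5xFAD 1 and 2 and high in Kcnip3 KO-5xFAD 3, whereas the 190 genes were high in Kcnip3 KO-5xFAD 1 and 3. Endothelial and mural markers ranged over 539 to 658 CPM in Kcnip3 KO-5xFAD and 466 to 590.1 CPM in Kcnip3 KO, and 0 of 17 were called.

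**Figure D4:**
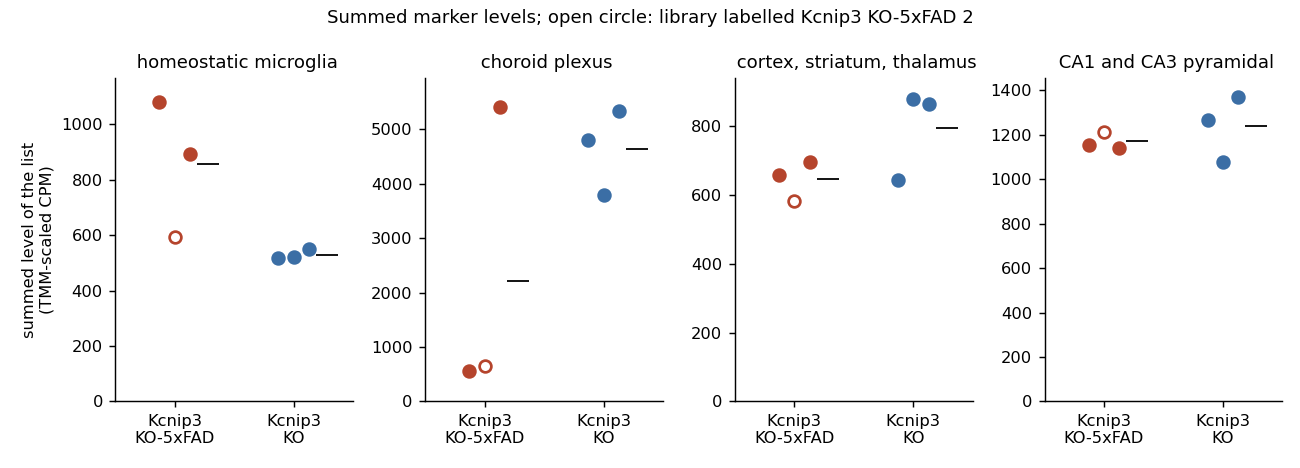
Summed level of 4 marker lists in TMM-scaled CPM (axes from 0) in Kcnip3 KO-5xFAD (red, left) and Kcnip3 KO (blue, right) libraries, with the mean as a line. Homeostatic microglial genes are highest in Kcnip3 KO-5xFAD 1 and 3 (1082 and 894 CPM), choroid plexus markers are low in Kcnip3 KO-5xFAD 1 and 2 (555 and 646 CPM), and pyramidal markers overlap.

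Whether the transgene effect depended on Kcnip3 was tested by the interaction, the effect on the knockout background minus that on the intact background. With all 12 libraries 0 of 15905 genes were called (0%), with 836 at an unadjusted p under 0.05 (5.26%), and DESeq2 called 3. Without the library labelled Kcnip3 KO-5xFAD 2, edgeR called 1 of 16182 (0.00618%), Fabp7 (adjusted p = 0.00835), with 890 at an unadjusted p under 0.05 (5.5%). WT 3 also went against its label, with Thy1 at 2277 CPM, and without both libraries 1 of 16076 was called (0.00622%), again Fabp7, at 1.99 ± 0.25 (adjusted p = 0.0417), with 555 at an unadjusted p under 0.05 (3.45%). There its effect was 1.60 ± 0.18 on the knockout background and -0.38 ± 0.18 on the intact one. On the intact background its level was 22.6, 31.6 and 25.8 CPM in 5xFAD, against 36.4, 33.1 and 37.9 CPM in WT. The Kcnip3 KO-5xFAD libraries thus stood above, and the Kcnip3 KO libraries below, every WT library. With all 12 libraries the interaction was 1.80 (adjusted p = 0.43), and without both libraries the call was lost, at an adjusted p of 0.0901 to 0.504, on leaving out WT 1, WT 2, Kcnip3 KO 1, Kcnip3 KO 3, 5xFAD 3 or Kcnip3 KO-5xFAD 1.

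Without both libraries, 208 genes (1.29%) were called higher in Kcnip3 KO-5xFAD than in Kcnip3 KO and 196 (1.22%) in 5xFAD than in WT, 2 comparisons that share no library. They had 144 genes in common, 69.2% of those called on the knockout background and 73.5% of those called on the intact one. Most genes called on one background were thus called on the other. Of the 208, 206 had a positive effect on the intact background, with medians of 1.58 on the knockout and 1.35 on the intact background. The interaction was called for 1 of the 208. Both omitted libraries were picked by Thy1, whose level moves with these genes, so the overlap depends in part on that choice. In 5xFAD, 13 genes were called lower (0.0809%).

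No list was tested for a difference between backgrounds, and the list medians are given as descriptions. For the interferon response the median was 1.64 on the knockout background and 0.48 on the intact one, and for MHC class II 1.73 and 0.68. For plaque-associated microglia, with Trem2 at 2.74 and 3.09, the medians were 1.69 and 1.79. Bst2 had an interaction of 1.11 and an unadjusted p of 0.00697 (adjusted p = 0.991). H2-Aa had 1.89 and 0.32 (interaction 1.57 ± 0.35, adjusted p = 0.991). Neither interaction passed. The summed interferon list was at 719, 219 and 402 CPM in Kcnip3 KO-5xFAD and at 223, 217 and 212 CPM in Kcnip3 KO. On the intact background the WT sums were 309, 243 and 234 CPM, above every Kcnip3 KO sum. The 5xFAD sums, 539, 318 and 432 CPM, overlapped those of Kcnip3 KO-5xFAD 1 and 3. H2-Aa levels were 10.8, 9.46 and 5.43 CPM for WT, against 3.68 to 4.71 CPM for Kcnip3 KO. For 5xFAD they were 17.7, 9.78 and 10.8 CPM, against 13.9 and 16.6 CPM for Kcnip3 KO-5xFAD 1 and 3. Whether the lower Kcnip3 KO levels set the larger medians was not tested.

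**Figure D5:**
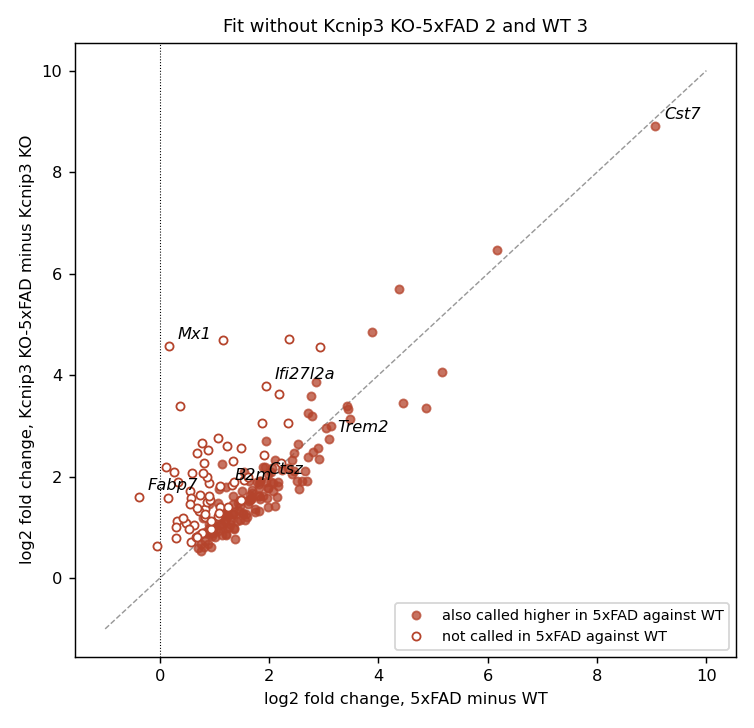
Log2 fold change on the knockout background (Kcnip3 KO-5xFAD minus Kcnip3 KO, vertical) against the intact background (5xFAD minus WT, horizontal) for the 208 genes called higher on the knockout background, in the fit without the libraries labelled Kcnip3 KO-5xFAD 2 and WT 3, with the line of equal effects dashed. Filled points (144) were also called higher in 5xFAD, and Fabp7 lies left of 0, at -0.38. Cst7 and Mx1 had 3 counts each in Kcnip3 KO, so their positions depend on the prior count.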

How the data were processed

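Hippocampal RNA was sequenced in 12 TruSeq mRNA libraries, per the labels' protocols. The authors deposited raw counts per gene and a table of log2 TPM values, with HISAT2 2.1.0, featureCounts, FastQC 0.11.9, edgeR 3.38.4, R 4.2.1 and mm10 listed in the submitters' processing notes. For the annotation, the strand setting and reads with several matches, the setting is not given in the sources used here, so antisense overlaps and close copies cannot be told apart. Symbols and positions came from GENCODE M21 (55144 of 55385 genes; the others held 0.00278% of the counts), promoters from RefSeq.

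Counts were fitted with edgeR 4.0.16 in R 4.3.3 (TMM, filterByExpr, robust quasi-likelihood, 1 coefficient per genotype, all 12 libraries), with Benjamini-Hochberg adjustment over all genes tested and calls at 0.05 without a minimum fold. Alternatives used DESeq2 1.42.0 and limma 3.58.1. The fit was tested on simulated data. Depth was 7664407 to 11310714 counts per library, and intervals cover counting error only. Positions are 1-based.

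The members and lists were chosen with earlier results of these data known, and the fit without the library labelled Kcnip3 KO-5xFAD 2 rests on its Thy1 level. Named genes were Kcnip3, App and Thy1, the 10 largest called changes in each direction with no overlap of the libraries compared and a mean of at least 1 CPM, up to 4 called members of each list by p (2 as values where none was called), and genes of smallest interaction p. Trem2, Cst7, Gfap, Apoe, Ctsb, Isg15, Cxcl10, Eif3j2, Ttr, Xist, Lag3 and Lgals3bp were chosen after their values were seen. Some genes that this rule names are not reported here. Same-numbered libraries of the 2 groups correlated at -0.09, -0.03 and -0.06 in their deviations from the group means, so the numbers were not taken as pairs.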

Additional observations from a re-analysis of the deposited data

Results flagged for a closer look

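Fabp7, the brain fatty acid-binding protein gene, was singled out because the effect of the 5xFAD transgenes differed between the knockout and the intact background by a test of the difference itself. The interaction was 1.99 ± 0.25 on the log2 scale without the libraries labelled Kcnip3 KO-5xFAD 2 and WT 3 (edgeR's quasi-likelihood test, adjusted p = 0.0417), and it ranged from 1.85 to 2.16 when 1 further library was left out, but the call was then lost without WT 1, WT 2, Kcnip3 KO 1, Kcnip3 KO 3, 5xFAD 3 or Kcnip3 KO-5xFAD 1 (adjusted p = 0.0901 to 0.504 in edgeR's test). With all 12 libraries it was 1.80 (adjusted p = 0.43). With both of those libraries counted by their labels, all 3 Kcnip3 KO-5xFAD libraries exceeded all 3 Kcnip3 KO libraries, and all 3 of 5xFAD lay below all 3 of WT.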

How the results depend on the processing

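With all 12 libraries, the 0 genes called higher and 0 lower became 208 and 1 without the libraries labelled Kcnip3 KO-5xFAD 2 and WT 3, 115 and 1 without Kcnip3 KO-5xFAD 2 and Kcnip3 KO 3, 150 and 4 with only the compared libraries less Kcnip3 KO-5xFAD 2, 182 and 7 with a length and GC offset less Kcnip3 KO-5xFAD 2, 419 and 302 with no filter, and 110 and 23 with DESeq2. Leaving out 1 library gave 0 to 190 higher and 0 to 3 lower. The 0 interactions called became 1 without both libraries, 1 with the offset less Kcnip3 KO-5xFAD 2, 272 with no filter, 3 with DESeq2, and 0 to 4 leaving out 1 library. The replicate block, though the numbers do not pair the libraries, gave 1 interaction, and with the offset 1 higher gene and 1 interaction. Without Kcnip3 KO-5xFAD 2, the 190 higher and 3 lower genes became 451 and 180 with no filter, and 106 higher with the offset and replicate block. DESeq2 gave 16 lower genes, the offset 7, at least 50 counts in 3 libraries 1, limma-voom 1, and scaling by library size or the log2 TPM values 0. Leaving out 1 further library gave 43 to 252 higher and 0 to 6 lower. The 1 interaction without both libraries became 64 with no filter, 2 with DESeq2, 3 with the offset and replicate block, 0 with the stricter filter, the replicate block or the offset, and 0 to 8 leaving out 1 library. The cause was not tested. Of 52 named genes called, 22 stayed called in all 22 alternatives and Pdcd1 in the 21 in which it was tested, 26 were lost without Kcnip3 KO-5xFAD 1, and none reversed. Among genes not called, Kcnip3 turned to 0.20 without Kcnip3 KO-5xFAD 2 and Kcnip3 KO 3, and ranged from -0.40 to 0.14 leaving out 1 library, over which mt-Co2 ranged from -0.12 to 1.04. The alternatives repeated without Kcnip3 KO-5xFAD 2 or both libraries were chosen after seeing the data. A count of 3 stood at 0.314 to 0.368 CPM, which limits the values of the lowest genes.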

Other observations

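Of the 190 genes called higher without the library labelled Kcnip3 KO-5xFAD 2, 96 lay outside the lists. Lag3, an inhibitory receptor of T cells also found in microglia, was at 36.4, 12.1 and 28.9 CPM in Kcnip3 KO-5xFAD and at 7.42, 8.09 and 10.4 CPM in Kcnip3 KO (1.91 ± 0.21, edgeR adjusted p = 0.000578). Lgals3bp, a secreted glycoprotein that binds galectins, rose by 2.08 on the log2 scale (adjusted p = 0.000308).

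Eomes and Calb2 were higher in every Kcnip3 KO-5xFAD library than in any Kcnip3 KO library. Eomes, a transcription factor of intermediate progenitors, was at 16.4, 2.89 and 2.58 CPM in Kcnip3 KO-5xFAD and at 0.418, 0.362 and 0.345 CPM in Kcnip3 KO. Calb2, which encodes calretinin, was at 145, 85.0 and 76.0 CPM in Kcnip3 KO-5xFAD and at 37.2, 67.2 and 44.7 CPM in Kcnip3 KO. Neither passed (adjusted p = 0.147 for Eomes and 0.282 for Calb2), and both were highest in Kcnip3 KO-5xFAD 1.

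With all 12 libraries, Gm12751, Fabp7 and Lbhd2 had the smallest interaction p, and none passed. Lbhd2 was at 3.55, 7.67 and 4.30 CPM in Kcnip3 KO-5xFAD and at 1.25, 2.66 and 0.575 CPM in Kcnip3 KO (interaction 3.98, edgeR unadjusted p = 0.000263, adjusted p = 0.853). Gm12751, a processed pseudogene, had no level above 0.111 CPM in Kcnip3 KO-5xFAD and was at 0.105, 2.78 and 0.345 CPM in Kcnip3 KO (adjusted p = 0.43 for the interaction in edgeR's test). Among the Kcnip3 KO libraries, Kcnip3 KO 2 held most of the Gm12751 reads. With intact Kcnip3, its level was 3.69 to 3.94 CPM for 5xFAD, whereas WT libraries reached 0.106 CPM at most. Its log2 effects with all 12 libraries were 6.27 on the intact and -4.34 on the knockout background (interaction -10.6). Such low levels leave these sizes uncertain. Lbhd2 also differed on the intact background, by -2.19, with 0.142 to 0.508 CPM for 5xFAD against 0.836 to 2.45 CPM for WT. Its effect on the knockout background was 1.80.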
